A study of Mus musculus with 24 samples.

Results

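The insulin-like growth factor (IGF) system was followed in L4 and L5 dorsal root ganglia (DRGs) through 10 genes, the ligands *Igf1* and *Igf2*, the receptors *Igf1r* and *Igf2r*, and the binding proteins *Igfbp2* to *Igfbp7*. Every non-control probe annotated with 1 of these 10 gene names was taken, which gave 21 of 41174 probes and 10 of 27398 gene names. The samples came from adult male C57BL/6J mice, either *Nfil3* KO mice, in which *Nfil3* was deleted in all cells by crossing *Nfil3* lox/+ mice with a line that expresses Cre from a human CMV promoter, or wildtype (WT) littermates. Their left sciatic nerve had been cut and the ends sutured together. DRGs were taken at day 2 or day 5 after the lesion. By the study's methods, control DRGs came from the non-injured side, so that the controls were DRGs of lesioned mice and not of unoperated mice. The sample titles call the controls day 0 and do not give the day after the lesion on which they were taken. The labels do not say which control and lesion samples came from the same mouse. There were 24 samples in 6 groups of 4, WT control, WT day 2, WT day 5, KO control, KO day 2 and KO day 5, with 2 samples per dye in each group. The labels call the tissue DRG neurons, but whole ganglia were frozen. Besides the neuronal markers, all 11 macrophage, all 8 endothelial and all 7 myelinating Schwann cell markers of the lists used here were well above background in every sample.

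IGF-1 and IGF-2 are secreted growth factors that act through IGF1R, a receptor tyrosine kinase that feeds the PI3K-Akt-mTOR and MAP kinase pathways. IGF2R, which is also the mannose 6-phosphate receptor, takes up IGF-2 and carries it to lysosomes. The IGF binding proteins hold the ligands outside the cell and set how much reaches the receptor, and they are in turn cut by proteases. In sensory ganglia IGFs are known as survival and neurite growth factors. NFIL3, the protein missing in the KO mice, is a basic leucine zipper transcription factor.

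The array measures each transcript with probes of 60 bases. Shown are 3 probes that lie in the coding sequence of genes that changed. In the *Igf1* and *Igfbp3* probes the capitals mark the cysteine codons of the reading frame, of which the *Igf1* probe holds 4 and the *Igfbp3* probe 3. In the *Igfbp2* probe they mark the stop codon. By the array annotation (mm9) the probes lie at chr10:87376418-87376477 on the forward strand for *Igf1*, at chr1:72898677-72898736 on the forward strand for *Igfbp2*, and at chr11:7108469-7109478 on the reverse strand for *Igfbp3*, where the 60 bases span 1010 bases of the genome and thus an intron.
*Igf1* probe A_52_P536434: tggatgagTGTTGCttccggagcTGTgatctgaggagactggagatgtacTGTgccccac
*Igfbp2* probe A_51_P423308: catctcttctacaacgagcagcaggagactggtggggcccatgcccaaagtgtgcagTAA
*Igfbp3* probe A_51_P228472: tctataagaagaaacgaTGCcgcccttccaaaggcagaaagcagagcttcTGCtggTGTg

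The labels were checked first through *Nfil3*. In the 12 WT samples the *Nfil3* probe A_52_P500027 read 8.44 to 11.08 (log2 of the normalized intensity, the scale of all levels given here). In the KO samples other than KO control replicate 4 it read 2.82 to 6.22 and was well above background in 4 of 11. Those 4, KO day 2 replicates 1 and 4 and KO day 5 replicates 1 and 3, were the KO samples that shared an array with a WT lesion sample. The sample labelled KO control replicate 4 read 7.59, above the other KO samples and below the WT samples. A separate label of this sample gives day 5, while its title gives day 0, as for the other controls, and it was kept as a control. Its level of *Atf3*, a transcription factor induced in injured neurons, was 9.66, within the range of the WT controls and below every lesion sample (12.94 or higher). This sample and the other controls that shared an array with a lesion sample read 9.04 or higher in *Atf3*. The remaining controls read 7.69 or lower, and the part of shared arrays in these levels was not tested. Without KO control replicate 4, the counts of calls given below for the 10 genes were the same but for day 5, where *Igfbp2* was lost. Between 54.4% and 72.3% of probes were well above background in a sample, and the brightest probe of each of the 10 genes was so in all 24 samples. That probe stands for its gene below unless another is named. Brightness depends on the probe, so levels are compared between groups and not between genes.

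Sciatic nerve lesion changed *Igf1*, its receptor and 3 binding proteins. Of the 10 genes, 5 passed a joint test of both lesion differences averaged over the genotypes (limma, Benjamini-Hochberg adjusted p under 0.05 over all probes), *Igf1*, *Igf1r*, *Igfbp2*, *Igfbp3* and *Igfbp7*, where 26.3% of all genes passed. At day 2, 2 genes were higher than control (*Igfbp3* and *Igfbp7*; 9.39% of all genes) and 3 were lower (*Igf2*, *Igf1r* and *Igfbp2*; 12.9%). At day 5, 2 were higher (*Igf1* and *Igfbp3*; 10.2%) and 2 lower (*Igf1r* and *Igfbp2*; 13%). The median log2 difference of the 10 genes was -0.23 at day 2 and 0.23 at day 5, beside -0.02 and -0.03 over all genes. *Igf1* was the only 1 of the 10 that passed for day 5 against day 2, where 3.33% of all genes passed.

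**Figure D1:**
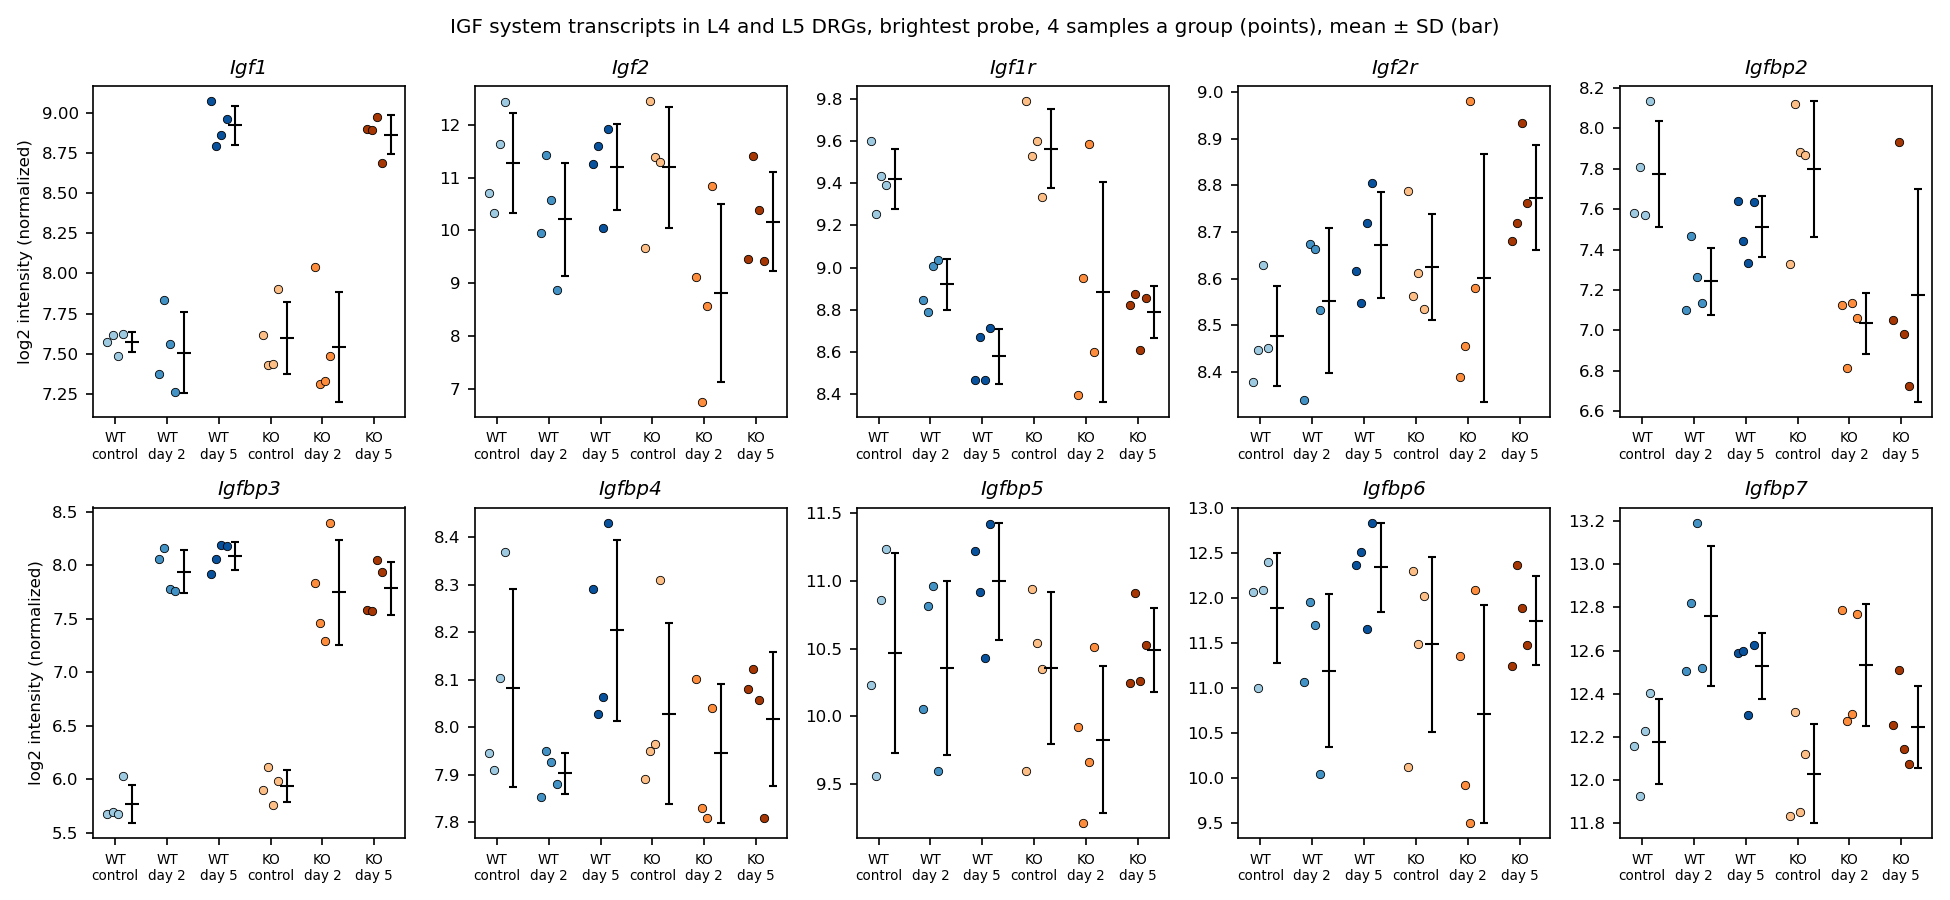
Log2 intensity (vertical axes, which differ in range) of the brightest probe of each gene in the 6 groups (horizontal axis). Points are the 4 samples of a group and bars the mean ± SD. The *Igf1* samples of day 5 lie between 8.69 and 9.07, above every other sample, while those of *Igf2* spread from 6.76 to 12.45.

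*Igf1*, the ligand that signals through IGF1R, was raised at day 5 and not at day 2. It read 7.57, 7.61, 7.49 and 7.62 in WT control, 7.38, 7.83, 7.56 and 7.26 in WT day 2, and 9.07, 8.79, 8.86 and 8.96 in WT day 5. In KO mice it read 7.62, 7.43, 7.44 and 7.90 in control, 8.04, 7.31, 7.33 and 7.49 at day 2, and 8.90, 8.89, 8.97 and 8.69 at day 5. Every day 5 sample thus lay above every control and every day 2 sample, and the control and day 2 samples overlapped. The day 5 difference from control was 1.31 ± 0.11 (log2, SE), or 2.48-fold (limma adjusted p = 1.3e-08). The day 2 difference was -0.06 with a 95% interval from -0.28 to 0.16 (adjusted p = 0.76), and day 5 exceeded day 2 by 1.37 (adjusted p = 3.3e-07). Within the samples of a single dye or slide the day 5 difference was 0.89 to 1.40.

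The other *Igf1* probes were read in the same way. The coding probe shown above rose by 1.25 ± 0.13 at day 5 (adjusted p = 3.8e-07), with a day 2 difference of -0.05. A dimmer probe, A_52_P351116, rose by 0.58 at day 5 (adjusted p = 0.0092) and fell by 0.47 at day 2 (adjusted p = 0.035), so the probes disagreed at day 2. A probe designed on a cDNA clone, A_52_P306327, was well above background in 7 of 24 samples and in none at day 2, and no fold is given for it.

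*Igf1* rose at the time when macrophage transcripts were highest, as were those of injured neurons (below). Of the 11 macrophage markers, 7 were higher than control at day 2 and all 11 at day 5, with a median difference of 1.78 at day 5 and every marker well above background in all samples. Their summed level (log2 of the summed intensities) was 13.08 to 13.83 in WT control, 13.53 to 14.52 at WT day 2 and 14.79 to 15.26 at WT day 5. In KO mice it was 13.26 to 13.71, 12.93 to 14.14 and 14.66 to 15.10. The 3 genes whose pattern over the 24 samples was most like that of *Igf1*, among 14484 genes well above background throughout, were *Ms4a7* (r = 0.97), *Hpgd* and *Cxcl16* (both r = 0.95). The r is a description, and the 24 points share arrays and groups. Whole ganglia were measured, so more cells of a type and more RNA per cell cannot be told apart. The part of macrophages or injured neurons in the *Igf1* difference was not tested.

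*Igf2*, the ligand that IGF2R clears, had the widest spread of the 10 genes. Its SD within groups, as moderated by limma with the spread of all probes, was 1.09 on the log2 scale, larger than that of 91.6% of all genes. *Igf2* read 10.70, 10.33, 11.64 and 12.42 in WT control, 9.94, 11.43, 10.58 and 8.88 at WT day 2, and 11.26, 11.59, 10.05 and 11.91 at WT day 5. The KO samples read 9.68, 12.45, 11.38 and 11.29 in control, 9.12, 6.76, 8.58 and 10.84 at day 2, and 9.47, 11.41, 10.39 and 9.42 at day 5. All groups overlapped. The day 2 difference was -1.72 ± 0.54 (adjusted p = 0.028), the day 5 difference was -0.55 (95% interval -1.69 to 0.59, adjusted p = 0.57), and the joint test gave an adjusted p of 0.057, which was 0.013 with slide as a block and 0.036 with array as a random block. A second *Igf2* probe differed by -1.87 at day 2 (adjusted p = 0.029). The day 2 call was lost on leaving out WT control replicate 3 or 4, WT day 2 replicate 4, KO control replicate 2 or KO day 2 replicate 2, with differences of -1.66 to -1.38 and adjusted p of 0.051 to 0.062. *H19*, the imprinted neighbour of *Igf2*, differed from control by -1.54 ± 0.42 at day 2 (adjusted p = 0.011) and by -0.26 at day 5 (adjusted p = 0.76).

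*Igf1r*, the signalling receptor, was lower after lesion at both time points. It read 9.60, 9.26, 9.43 and 9.39 in WT control, 8.85, 8.79, 9.01 and 9.04 at WT day 2, and 8.47, 8.67, 8.47 and 8.71 at WT day 5. In KO mice it read 9.79, 9.53, 9.60 and 9.33 in control, 8.40, 8.95, 9.58 and 8.60 at day 2, and 8.83, 8.87, 8.61 and 8.85 at day 5. The day 5 samples all lay below the controls in both genotypes. At day 2 this held in WT, while KO day 2 replicate 3 lay within the controls. *Igf1r* fell by 0.59 ± 0.12 at day 2 (adjusted p = 0.0016) and by 0.81 ± 0.12 at day 5 (1.75-fold, adjusted p = 5.8e-05). A further fall from day 2 to day 5 was not shown (-0.22, adjusted p = 0.44). Within single dyes or slides the difference was below 0 throughout, from -0.80 to -0.14 at day 2 and from -1.04 to -0.33 at day 5.

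All 4 *Igf1r* probes read lower after lesion on average. Probe A_51_P318365 passed at both days, A_52_P634111 passed at day 5 alone (-0.60, adjusted p = 0.0028) and the clone-derived A_52_P668647 passed at day 2 alone (-0.62, adjusted p = 0.00028). A_52_P668647 was dim, well above background in 18 of 24 samples and in 4 of 8 at day 2, so its size of change is uncertain. Most markers of neurons were also lower after lesion, 8 of 10 at each day, with a median difference of -0.53 at day 2 and -0.61 at day 5. The summed level of the 10 neuronal markers went from 18.89 to 19.17 in WT control to 18.61 to 18.80 at WT day 5 and from 18.91 to 19.23 to 18.39 to 18.80 in KO. All 10 were well above background in every sample, and their part in the *Igf1r* difference was not tested. The closest patterns to *Igf1r* were those of *Rbms1* (r = 0.96), *Plekha6* and *Cyld* (both r = 0.95).

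*Igf2r*, the scavenger receptor for IGF-2, stayed between 8.34 and 8.98 in all 24 samples. Its difference from control was 0.03 at day 2 (95% interval -0.15 to 0.20) and 0.17 at day 5 (0.00 to 0.34, adjusted p = 0.16), so that a change beyond 0.34 lay outside either interval.

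**Figure D2:**
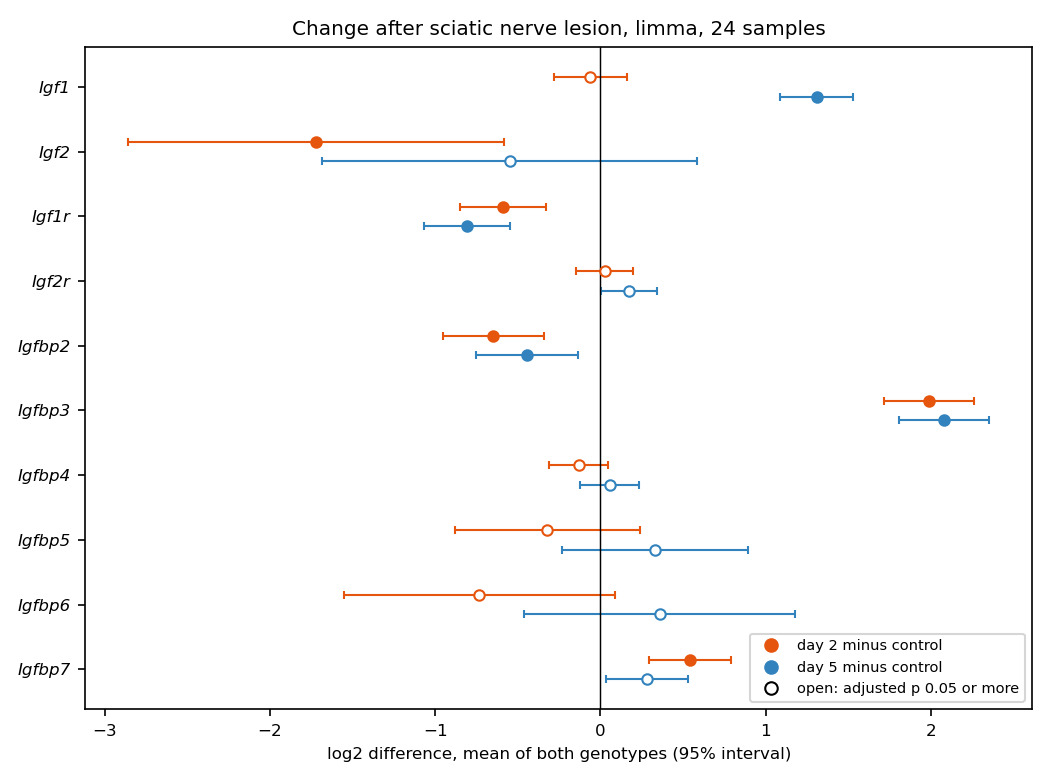
Log2 difference from control at day 2 and day 5 for the 10 genes, averaged over the genotypes. Points are estimates of limma from 24 samples, bars 95% intervals, and filled points passed an adjusted p of 0.05. *Igfbp3* lies near 2 at both days, *Igf1* moves at day 5 alone and *Igf1r* lies below 0 at both.

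*Igfbp3*, the main carrier of IGFs in blood, showed the largest difference of the 10 genes and was up already at day 2. It read 5.67, 5.69, 5.67 and 6.04 in WT control, 8.06, 8.16, 7.78 and 7.76 at WT day 2, and 7.91, 8.06, 8.19 and 8.18 at WT day 5. The KO samples read 5.90, 6.12, 5.76 and 5.99 in control, 7.84, 7.46, 7.29 and 8.40 at day 2, and 7.58, 7.57, 8.05 and 7.93 at day 5. No lesion sample of either day overlapped any control. The difference was 1.99 ± 0.13 at day 2 (3.96-fold, adjusted p = 7.5e-10) and 2.08 ± 0.13 at day 5 (4.22-fold, adjusted p = 2.5e-10), and the days differed by 0.09 (95% interval -0.18 to 0.36). The coding probe shown above rose by 1.19 at day 2 (adjusted p = 2.2e-06) and by 1.15 at day 5 (adjusted p = 2.6e-06). It was well above background in 5 of 8 controls and in all lesion samples, so its size of change is uncertain. The clone-derived probe A_52_P851352 did not rise well above background in any control. It was at least 1.88-fold higher on day 2 (adjusted p = 0.002) and at least 2.04-fold on day 5 (adjusted p = 0.00084), taking for each control the higher of its own signal and the lowest signal well above background on its channel.

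The 7 markers of injured neurons all rose at both days, with median differences of 3.73 at day 2 and 4.38 at day 5. Their summed level was 11.99 to 13.72 in WT control, 16.03 to 16.49 at WT day 2 and 17.01 to 17.28 at WT day 5, and 12.04 to 13.47, 15.64 to 16.43 and 16.73 to 17.19 in KO. The part of these cells in the *Igfbp3* difference was not tested. The 3 genes nearest to *Igfbp3* in pattern were *Camk1* (r = 0.99), *Itga7* (r = 0.99) and *2010002N04Rik* (r = 0.98), which rose by 2.26, 1.96 and 2.76 at day 2.

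*Igfbp2*, a binding protein of the nervous system and its fluids, was lower after lesion. It read 7.58, 7.81, 7.57 and 8.14 in WT control, 7.10, 7.47, 7.27 and 7.14 at WT day 2, and 7.64, 7.44, 7.33 and 7.64 at WT day 5. In KO mice it read 7.33, 8.12, 7.88 and 7.87 in control, 7.12, 6.82, 7.14 and 7.06 at day 2, and 7.05, 7.93, 6.98 and 6.73 at day 5. Within each genotype all day 2 samples lay below the controls, while the day 5 samples overlapped them. *Igfbp2* fell by 0.65 ± 0.15 at day 2 (adjusted p = 0.0029) and by 0.44 ± 0.15 at day 5 (adjusted p = 0.034). The day 5 call was lost without WT control replicate 2 or 4, WT day 5 replicate 2 or 3, KO control replicate 2, 3 or 4, or KO day 5 replicate 1, 3 or 4, with differences of -0.44 to -0.37 and adjusted p of 0.056 to 0.082. *Sstr4* (r = 0.89), *Dapl1* (r = 0.88) and *Fmod* (r = 0.87) were most like it in pattern.

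*Igfbp7*, a secreted protein with low affinity for IGFs that is found in vessel walls, rose at day 2. It read 12.16, 11.93, 12.22 and 12.40 in WT control, 12.50, 12.82, 13.19 and 12.52 at WT day 2, and 12.59, 12.60, 12.30 and 12.62 at WT day 5. The KO samples read 11.83, 12.31, 11.85 and 12.12 in control, 12.79, 12.27, 12.30 and 12.77 at day 2, and 12.26, 12.51, 12.14 and 12.07 at day 5. The day 2 samples lay above the controls in WT and overlapped them in KO. The difference was 0.54 ± 0.12 at day 2 (1.46-fold, adjusted p = 0.0022) and 0.28 at day 5 (95% interval 0.03 to 0.53, adjusted p = 0.1). Of the 8 endothelial markers 2 were higher at day 2 and none at day 5, and their part in the *Igfbp7* difference was not tested. *Ly6a* (r = 0.92), *Ifitm2* (r = 0.91) and *Nnmt* (r = 0.90) were closest to it in pattern.

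The other binding proteins did not pass the joint test. *Igfbp4*, an inhibitory carrier that is cut by the protease PAPP-A, read 7.81 to 8.43 over all samples and differed from control by -0.13 at day 2 (95% interval -0.31 to 0.05) and 0.06 at day 5 (-0.12 to 0.23). *Igfbp5*, which binds to extracellular matrix, read 9.21 to 11.43 and differed by -0.32 (-0.88 to 0.24) and 0.33 (-0.23 to 0.89). *Igfbp6*, which prefers IGF-2 over IGF-1, read 9.50 to 12.84 and differed by -0.73 (-1.55 to 0.09) and 0.36 (-0.46 to 1.18). Its joint test, with an adjusted p of 0.11, passed with slide as a block (0.021) and with array as a random block (0.049). The intervals of the last of these are wide enough to hold a change of more than 1 in either direction over the days.

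**Figure D3:**
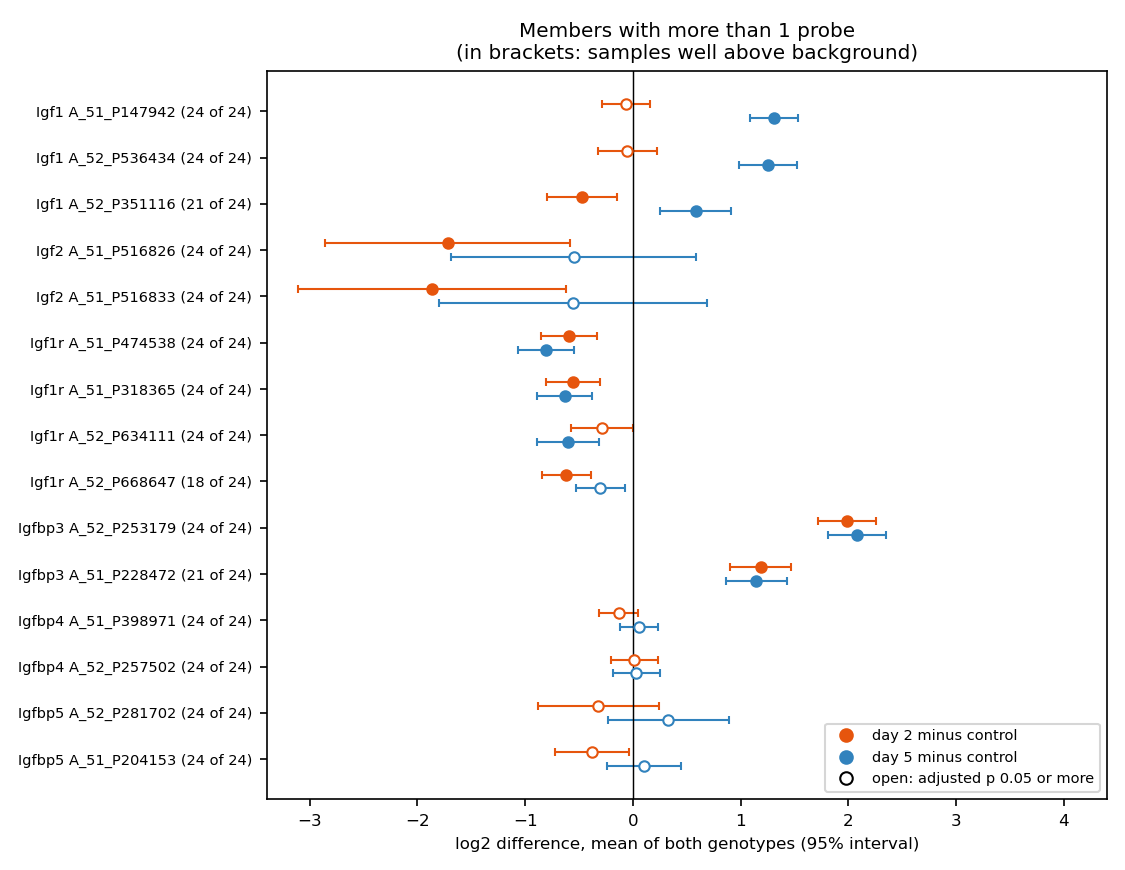
Log2 difference from control for each probe of the genes with more than 1 probe, with 95% intervals, leaving out the probes that were not well above background in a whole group. Brackets give the samples well above background, and filled points passed an adjusted p of 0.05. The *Igfbp3* probes lie at 1.15 or higher, and the *Igf1* probes lie above 0 at day 5.

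*Igfbp5*, *Igfbp6* and *Igfbp7* varied with *Igf2* from sample to sample within groups, though over a narrower range (moderated SD within groups 0.54, 0.78 and 0.24, beside 1.09 for *Igf2*). Each sample was set against the mean of its group, and the 45 pairs of the 10 genes and the 120 pairs of a gene and the mean level of 1 of 12 marker lists were compared over the 24 samples, 165 relations in all, by a two-sided permutation test within groups (100000 permutations, p adjusted over the 165). The adjusted p of r was under 0.05 in 41 of them. *Igf2* varied with *Igfbp5* (r = 0.889, rho = 0.892, p = 1e-05 for both, adjusted p = 0.00055) and with *Igfbp6* (r = 0.881, rho = 0.883, p = 1e-05 for both, adjusted p = 0.00055), where 1e-05 is the smallest p these permutations can give. Without the 2 samples farthest from the median, KO day 2 replicates 2 and 4, r was 0.890 and 0.868. *Igfbp7* varied with *Igf2* (r = 0.767, rho = 0.836, p = 0.00016 and 4e-05, adjusted p = 0.0022 and 0.0011), with r = 0.744 without the same 2 samples. Within the dyes r was 0.866 to 0.909 for *Igf2* with *Igfbp5* or *Igfbp6*, and within the slides 0.672 to 0.979. For *Igfbp7* with *Igf2* it was 0.738 and 0.821 within the dyes, but 0.307 within slide 1, 0.877 within slide 2 and 0.833 within slide 3.

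The same samples were high or low in markers of several cell types. Of the 120 relations of a gene with a marker list 26 passed, 20 of them with these 4 genes. The list of fibroblasts and meninges held 9 markers, of which 8 were well above background in every sample and *Dpt* in none. The mean level of these 9 markers varied with *Igf2* (r = 0.817, rho = 0.782, p = 4e-05 and 0.00014, adjusted p = 0.00094 and 0.0021), *Igfbp5* (r = 0.855, rho = 0.837, p = 2e-05 and 6e-05, adjusted p = 0.00082 and 0.0014), *Igfbp6* (r = 0.849, rho = 0.857, p = 3e-05 and 0.00012, adjusted p = 0.00082 and 0.002) and *Igfbp7* (r = 0.880, rho = 0.879, p = 5e-05 and 0.00011, adjusted p = 0.001 and 0.002). Without KO day 2 replicate 2 and WT day 2 replicate 4, r was 0.745, 0.824, 0.826 and 0.874. Within dyes and slides r was 0.440 to 0.948. Between the groups, 1 of the 9 markers was lower at day 2 and 1 higher at day 5. Their summed level was 15.34 to 16.15 in WT control, 15.01 to 16.40 at WT day 2, 15.85 to 16.46 at WT day 5, 15.62 to 15.99 in KO control, 14.73 to 16.13 at KO day 2 and 15.90 to 16.22 at KO day 5. KO day 2 replicate 2, the lowest of all samples in *Igf2*, was also the lowest in *Igfbp5*. The mean level of the neuron markers ran the other way, with *Igf2* (r = -0.654, rho = -0.745, p = 0.0067 and 0.00051, adjusted p = 0.032 and 0.0053), *Igfbp5* (r = -0.684, rho = -0.780, p = 0.0015 and 0.0002, adjusted p = 0.011 and 0.0024), *Igfbp6* (r = -0.719, rho = -0.806, p = 0.0014 and 0.00018, adjusted p = 0.011 and 0.0023) and *Igfbp7* (r = -0.810, rho = -0.865, p = 0.0001 and 4e-05, adjusted p = 0.0017 and 0.0011). Without KO day 2 replicate 1 and KO day 5 replicate 2, r was -0.705, -0.782, -0.739 and -0.802, and within dyes and slides it was -0.889 to -0.444.

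Markers of other non-neuronal cells also varied with these genes. The endothelial list passed with *Igfbp7* (r = 0.823, rho = 0.788, p = 9e-05 and 0.00016, adjusted p = 0.0017 and 0.0022), *Igfbp5* (r = 0.700, rho = 0.717, p = 0.00042 and 0.00058, adjusted p = 0.0048 and 0.0053) and *Igfbp6* (r = 0.622, rho = 0.670, p = 0.007 and 0.0028, adjusted p = 0.032 and 0.017). Without WT day 2 replicate 3 and KO day 5 replicate 3, r was 0.815, 0.707 and 0.719, and within dyes and slides it was 0.300 to 0.947. The list of myelinating Schwann cells passed with the same 3 genes, at r = 0.779, 0.665 and 0.699 and rho = 0.759, 0.716 and 0.706 (adjusted p of r 0.01, 0.01 and 0.032, of rho 0.012, 0.0053 and 0.029), and without WT day 2 replicate 3 and KO day 2 replicate 1 r was 0.690, 0.702 and 0.728. The macrophage list passed with all 4 genes, at r = 0.626 to 0.680 and rho = 0.606 to 0.695 (adjusted p of r 0.027 to 0.042, of rho 0.024 to 0.04), but r was 0.475 to 0.623 without KO day 2 replicates 2 and 4, and -0.130 to 0.357 within slide 1. The adipocyte list passed with *Igfbp5* (r = 0.655, rho = 0.632) and *Igfbp7* (r = 0.636, rho = 0.610), with adjusted p of r of 0.016 and 0.014 and of rho of 0.032 and 0.024, and r was 0.545 and 0.568 without WT control replicate 2 and WT day 5 replicate 3. Only 2 of the 4 adipocyte markers were well above background in every sample, and the mean level was taken over all 4. The 6 other relations that passed were those of *Igf1* with injured neurons, of *Igfbp2* with 2 lists and of *Igfbp4* with 3, with r between -0.616 and 0.710. *Igf1* had r = 0.481 with injured neurons (permutation adjusted p = 0.02), and r = 0.416 without KO control replicate 4 and WT control replicate 4. The mean level of the injured neuron list was 8.71 to 10.02 in controls that shared an array with a lesion sample. In the other controls it was 7.81 to 7.87, and the part of shared arrays in this relation was not tested. With the macrophage list the r of *Igf1*, 0.582, did not pass (adjusted p = 0.07), while its rho of 0.686 did (adjusted p = 0.012). The neuron list did not pass with *Igf1r* (r = 0.429, adjusted p = 0.42). The part of the listed cells in the lesion differences of *Igf2*, *Igfbp5*, *Igfbp6* and *Igfbp7* was not tested. Samples on 1 array deviated together (median r 0.433 over 12 arrays), so the 24 points are not fully independent.

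**Figure D4:**
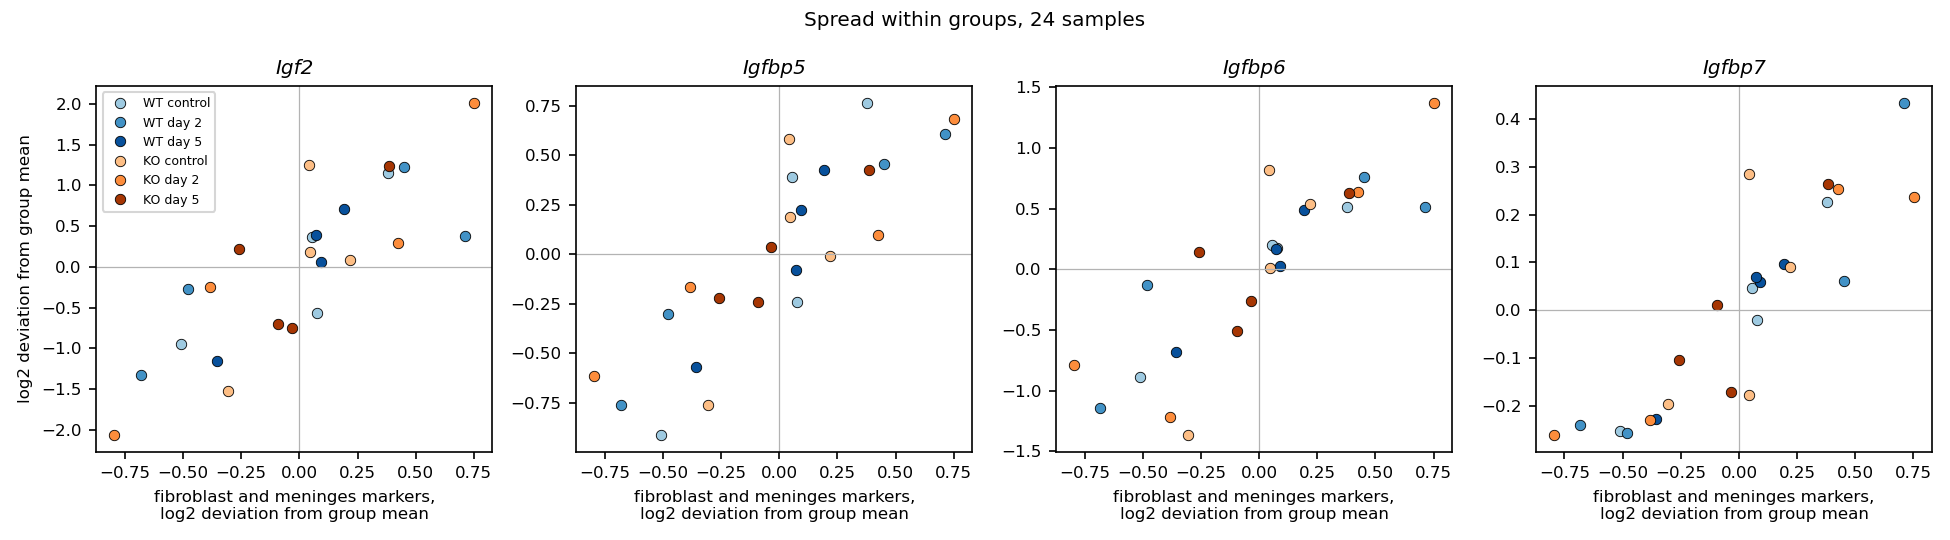
Deviation of each of the 24 samples from its group mean (log2) for *Igf2*, *Igfbp5*, *Igfbp6* and *Igfbp7* (vertical axes, which differ in range) against the same deviation of the mean level of 9 fibroblast and meningeal markers (horizontal axis). Colours give the group. The points rise together in all 4 plots, with r between 0.817 and 0.880.

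Loss of *Nfil3* was compared with WT at each time point to ask whether it alters these transcripts. None of the 10 genes passed for KO minus WT in control, at day 2 or at day 5 (limma), where 5 of 27398 genes (0.0182%) passed, and none had an unadjusted p under 0.05. The lowest unadjusted p was 0.087, for *Igf2* at day 2, which differed by -1.39 with a 95% interval from -2.99 to 0.22. *Igf1* differed by 0.02, 0.03 and -0.06 in control, at day 2 and at day 5, with intervals that stayed within -0.37 to 0.35. *Igf1r* differed by 0.14, -0.04 and 0.21 (intervals within -0.40 to 0.58), and *Igfbp3* by 0.17, -0.19 and -0.30 (within -0.69 to 0.56). The intervals of *Igf2* and *Igfbp6* were wider, reaching -2.99 and -1.76.

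No interaction of time and genotype was shown for any of the 10 genes in limma's joint test, which 0% of all genes passed. *Nfil3* itself did not pass it, though its mean went from 8.66 in WT control to 10.92 at WT day 5. In KO it went from 4.67 to 4.42. The test thus missed an interaction of that size for *Nfil3*, whose KO samples spread widely (SD 2.03 in control, 1.39 at day 2 and 1.53 at day 5). The SD within groups, as moderated by limma, was 0.16 to 1.09 for the 10 genes. The result for *Nfil3* therefore does not show what the test could miss for them. None of the 10 had an unadjusted p under 0.05 for the interaction, and the lowest was 0.19, for *Igfbp3*. Its lesion difference at day 5 was 0.47 lower in KO than in WT (95% interval of the difference -1.02 to 0.07). Within WT mice 3 of the 10 genes passed at day 5 (13.9% of all genes) and within KO mice 3 (12.8%), in both cases *Igf1*, *Igf1r* and *Igfbp3*. *Igf1* rose by 1.35 in WT and 1.27 in KO, *Igf1r* fell by 0.84 and 0.77, and *Igfbp3* rose by 2.32 and 1.84.

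The other genes of the pathway were taken from 5 lists of 57 genes, of which 56 were on the array. Of these, 27 passed the joint lesion test, 11 higher and 16 lower at day 2, and 10 higher and 15 lower at day 5. Over all genes 26.3% passed the joint test, 9.39% were higher and 12.9% lower at day 2, and 10.2% higher and 13% lower at day 5, and the counts per list below are read against the 26.3%. Their median difference was -0.01 at day 2 and -0.05 at day 5. None passed for KO minus WT or for the interaction.

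Among the proteases, their inhibitors and other carriers, 3 of 9 genes passed. *Igfbp1*, a carrier known as a target of insulin signalling, was well above background in none of the 8 controls, in 7 of 8 samples of day 2 and in all 8 of day 5, so that it was at least 3.04-fold higher on day 2 (adjusted p = 3.2e-06) and at least 2.46-fold on day 5 (adjusted p = 1.8e-05). *Pappa*, which encodes the protease PAPP-A that cuts IGFBP-4 and frees IGF, rose by 0.78 ± 0.08 at day 2 and 0.89 ± 0.08 at day 5 (adjusted p = 5.8e-07 and 6.8e-08). *Htra1*, a secreted serine protease, fell by 0.42 and 0.36.

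In the insulin and growth hormone arm 5 of 8 passed. *Ghr*, the growth hormone receptor, fell by 0.58 and 0.72 at day 2 and day 5. *Socs2*, a feedback inhibitor of growth hormone signalling, rose by 1.01 and 0.77. *Grb10*, an adaptor that dampens IGF1R and insulin receptor signalling, rose by 0.29 at day 2 and 0.96 at day 5, and day 5 exceeded day 2 (0.67, adjusted p = 4.2e-06). *Grb14*, a related adaptor, fell by 0.34 and 0.29, and *Ins2* by 0.26 and 0.45. The insulin receptor *Insr* differed by 0.01 and -0.18 and did not pass.

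*Igf2bp2*, which encodes an RNA-binding protein of the *Igf2* message, rose by 0.65 and 0.53. Among adaptors and the PI3K-Akt branch 9 of 18 passed. *Grb2* and *Akt1* rose, by 0.29 and 0.17 at day 2 and 0.22 and 0.19 at day 5, whereas *Shc1*, *Sos1* and *Pik3r3* fell at both days, *Shc1* by 0.32 and 0.55. Of the mTOR and FoxO genes 8 of 17 passed. The largest difference was that of *Eif4ebp1*, which encodes a repressor of translation that mTOR inactivates, at 1.45 ± 0.10 and 1.61 ± 0.10 (adjusted p = 1.9e-09 and 2.7e-10). *Eif4e*, the cap-binding factor it holds, rose by 0.80 and 0.46. *Rps6kb2* rose by 0.21 and 0.23, whereas *Mtor*, *Rptor*, *Tsc1* and *Foxo6* fell at both days, *Foxo6* by 0.96 and 0.86.

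**Figure D5:**
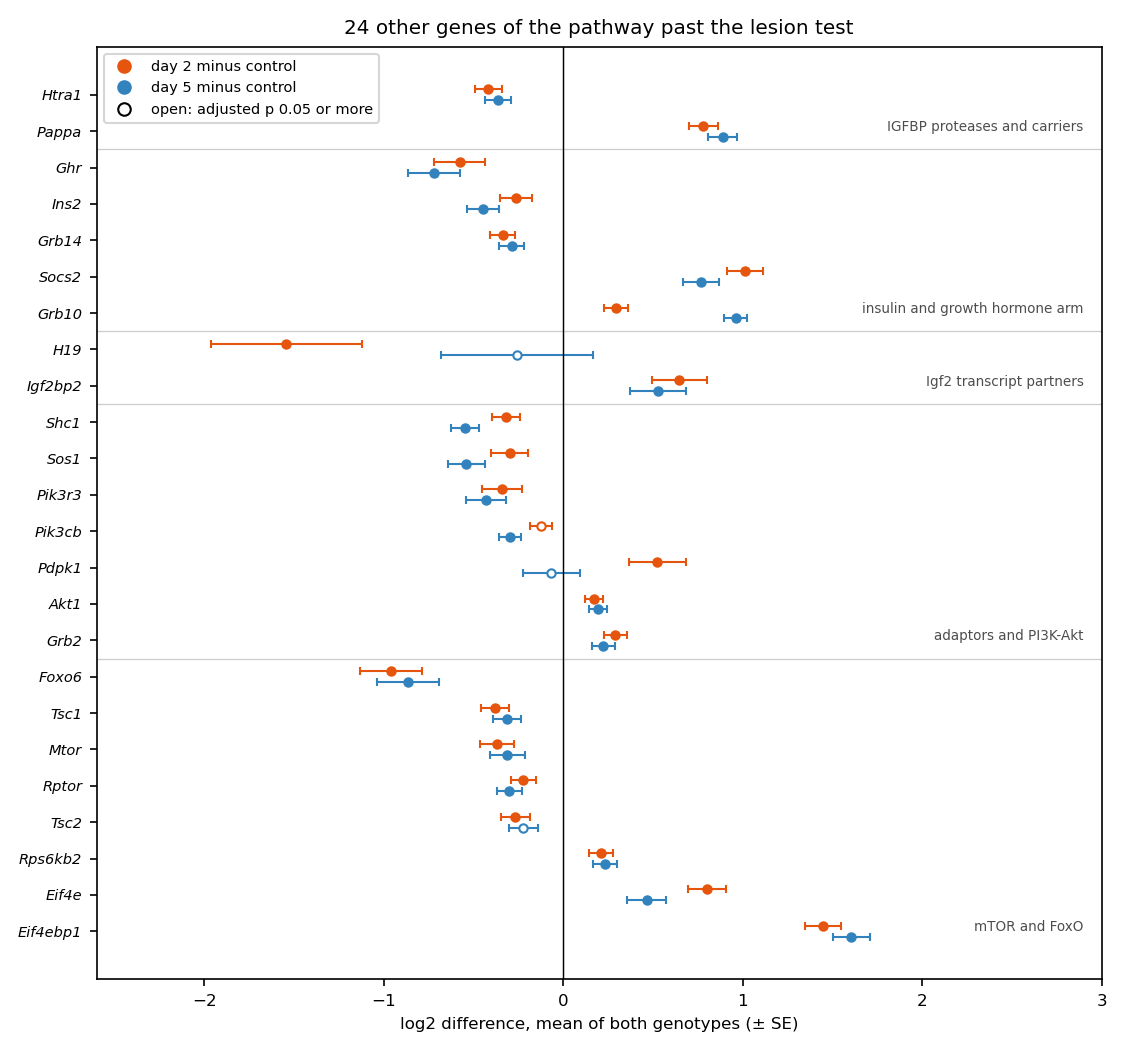
Log2 difference from control (± SE) at day 2 and day 5 for 24 of the other pathway genes that passed the joint lesion test, ordered by list, without *Igfbp1*, which has only a bound. Filled points passed an adjusted p of 0.05 for that day. *Eif4ebp1* lies farthest to the right at both days and *H19* farthest to the left at day 2.

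The sequences before the transcription starts were read for the motif of the deleted factor. RefSeq promoter windows (GRCm38.p6, 250 bases before to 50 after a start) matched all 10 genes with 14 windows. On either strand, the NFIL3 palindrome TTACGTAA was in 0 of the 14 and in 0.119% of 32851 windows of all genes, and TTATGTAA in 0 and in 0.938%. The cyclic AMP element TGACGTCA was in 0 of the 14 (1.79% of all). The AP-1 site TGAGTCA, a motif of JUN and ATF3 dimers, was in 1 window, of *Igfbp2* (5.2% of all). The letters of the TATA box, TATAAA, were in windows of *Igfbp4* and *Igfbp6* (13.6% of all). In *Igfbp4* they lay 22 bases before the start, and in *Igfbp6* on the opposite strand, 142 bases before it. A match is a run of letters and not a shown binding site. The 250 bases before the start are given for the genes that rose most among those past the joint test, *Igf1* (forward strand) and *Igfbp3* (reverse strand), in which none of these motifs occurred, and for the second *Igfbp2* start (forward strand), with its AP-1 letters in capitals, 32 bases before the start.
*Igf1* upstream, chr10:87860861-87861110: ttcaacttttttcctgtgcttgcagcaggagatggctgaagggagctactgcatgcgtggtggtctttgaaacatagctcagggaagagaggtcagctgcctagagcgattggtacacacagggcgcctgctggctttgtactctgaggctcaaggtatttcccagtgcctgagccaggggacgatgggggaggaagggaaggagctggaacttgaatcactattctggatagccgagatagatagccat
*Igfbp3* upstream, chr11:7213924-7214173: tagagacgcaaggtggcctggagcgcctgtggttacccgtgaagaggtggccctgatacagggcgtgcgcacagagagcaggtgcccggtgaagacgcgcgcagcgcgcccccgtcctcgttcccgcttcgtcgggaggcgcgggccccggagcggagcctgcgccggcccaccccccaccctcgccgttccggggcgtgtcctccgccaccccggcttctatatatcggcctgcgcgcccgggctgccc
*Igfbp2* upstream, chr1:72825137-72825386: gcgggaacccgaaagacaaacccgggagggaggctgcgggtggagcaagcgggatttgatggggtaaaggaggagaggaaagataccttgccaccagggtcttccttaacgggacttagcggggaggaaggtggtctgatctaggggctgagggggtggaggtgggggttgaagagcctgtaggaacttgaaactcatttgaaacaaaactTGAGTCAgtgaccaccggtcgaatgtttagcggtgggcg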

How the data were processed

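RNA of L4 and L5 DRGs was labeled with Cy3 or Cy5 and hybridized to 12 Agilent 4x44K arrays on 3 slides, a different sample in each channel. The deposited files are the output of Agilent Feature Extraction 10.7.3.1, in which the authors give the foreground and background intensity of every spot in each channel, not normalized, with quality flags. The deposited processed intensities served as an alternative only. Following the study's methods, background was removed by the Edwards method, and quantile normalization over the 24 channels and log2 followed. Control spots and spots marked as outliers were dropped (417 probe values were missing), and repeated spots were averaged. Groups follow the sample titles. R 4.3.3 with limma 3.58.1 and statmod 1.5.0 fitted 1 mean per group to all 24 samples (lmFit, eBayes), with Benjamini-Hochberg adjustment over 41174 probes and a threshold of 0.05. Each gene was represented by its brightest probe on average. Named were all 10 genes, the pathway genes that passed at both days or had the 5 largest differences, and, for each of the 10 that passed the lesion test, the 3 genes of highest correlation. *Insr*, *Atf3* and *Dpt* were named after their values were seen. The genes and lists were chosen with earlier results of these data known. Of the pathway genes, 3 were well above background in no sample, and 2 are counted but not reported here.

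The study's design text calls the samples of a group biological replicates. Precision is limited by the 4 samples a group, and no spot was saturated. The scripts were tested on simulated data. The labels do not tie replicate numbers to mice, so the pairing is unknown and none was used. The median r of same-numbered samples of different groups, given below, cannot show whether samples were paired. The alternatives changed the background step (left out, normexp at offset 50, or processed signals at a common 75th percentile), the foreground (medians), the normalization (loess and Aquantile), the spots (outliers kept), the probes (a filter for 4 samples well above background, or means per gene) and the model (dye, slide, replicate, array partner, array or an intensity trend). Each sample was also left out, and values were taken within each dye and slide. Probe coordinates (mm9) come from the array files, and exon annotation of that build was not used here.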

Additional observations from a re-analysis of the deposited data

Results flagged for a closer look

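In each group of 4, the highest or lowest sample was compared with the rest by the gap to its neighbour over the range of the group, for the 10 genes in 6 groups. Of these 60, 2 stood apart, and chance alone gives about 1 in 20. *Igfbp3* in WT control replicate 4 read 6.04, where the other 3 read 5.67 to 5.69. This sample shared its array with WT day 5 replicate 2, and the part of that array in the value was not tested. *Igfbp7* in WT day 5 replicate 3 read 12.30, where the other 3 read 12.59 to 12.62. The same sample was also the lowest of its group in *Igf2* (10.05), *Igfbp5* (10.43) and *Igfbp6* (11.66).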

How the results depend on the processing

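The counts of genes called were computed under 14 other settings and with each of the 24 samples left out. Under the 14 settings, 5 to 7 of the 10 genes passed the joint lesion test, 5 passed at day 2, 3 to 5 at day 5, 3 at day 5 in WT, 3 to 4 at day 5 in KO, and 0 for KO minus WT and for the interaction, and 23 to 29 pathway genes passed. With slide as a block, 2 genes in place of 1 passed for day 5 minus day 2. Leaving out single samples gave 5 to 7 for the joint test, 4 to 5 at day 2, 3 to 4 at day 5 and 26 to 29 pathway genes, and without KO control replicate 4, whose labels conflict, 5 genes passed the joint test, 5 passed at day 2 and 3 at day 5, where *Igfbp2* was lost (-0.43, adjusted p = 0.057). *Igf1*, *Igf1r*, *Igfbp2*, *Igfbp3* and *Igfbp7* passed the joint test under all 14 settings and without any of the 24 samples, while *Igf2* passed it in 6 of the 14 settings and 4 of the 24 fits without a sample, and *Igfbp6* in 2 (slide or array as a block) and 1 (without KO day 2 replicate 4). No called difference changed sign. The day 5 fall of *Igfbp2* missed the threshold with array as a random block (-0.41, adjusted p = 0.06), and the day 5 difference of *Igfbp7* passed with slide as a block (0.31, adjusted p = 0.048). With the replicate block, which is not a pairing given by the labels, 5 genes passed the joint test and 28 pathway genes did. Same-numbered samples of different groups had a median r of 0.057 over 60 pairs. Signal over background limits the dim probes, and the 4 samples a group limit what a missed threshold can show, most for *Igf2*, *Igfbp5* and *Igfbp6*.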
